A study of Mus musculus with 12 samples.

Results

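Kupffer cells are the resident macrophages of the liver sinusoids, where they take up particles and bacteria from portal blood. Macrophages are also a main source of C1q, the recognition protein that opens the classical complement pathway and is built from the products of *C1qa*, *C1qb*, and *C1qc*. The 10 genes followed here were chosen by name: the C1q genes; *Clec4f*, *Vsig4*, *Timd4*, *Marco*, and *Cd5l*, whose proteins are receptors or a secreted scavenger protein of Kupffer cells; and *Adgre1* and *Csf1r*, which encode the F4/80 antigen and the receptor for the macrophage growth factor CSF1. They are 10 of the 22456 genes with an RPKM value (read counts scaled to transcript length and to the mapped reads of the library), and all 10 were among the 11507 genes tested, whose mean was at least 0.5 RPKM. In whole liver RNA, fewer Kupffer cells and less RNA per Kupffer cell cannot be told apart.

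RNA-Seq was performed on livers of 12 male BALB/cByJ mice aged 2 to 8 months, 3 in each of 4 groups. *Lpin1*-/- mice, homozygous for the fatty liver dystrophy allele in every tissue, and their wild type (*Lpin1*+/+) littermates were studied after a 16-hour fast or after a 16-hour fast and 5 hours of refeeding. Because refed livers were taken 5 hours later in the day, feeding state and time of day cannot be told apart. Each library is 1 mouse, and the depth was estimated at 94 to 126 M mapped reads per library. *Lpin1* itself ranged from 0.73 to 22.0 RPKM in *Lpin1*+/+ livers and was at most 0.060 RPKM in *Lpin1*-/- livers, so the genotypes did not overlap.

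One library, refed *Lpin1*+/+ replicate 2, stood apart in most of these genes, and results that it changes are given with and without it. It was singled out from the values of these same genes, so calls made without it are not independent support. The summed RPKM of 28 other macrophage genes was 5603 there and 264 and 167 in the other refed *Lpin1*+/+ livers. A few genes make up most of the 5603 RPKM, with *Cd74* (2250 RPKM) and *Lyz2* (929 RPKM) the largest terms. Its summed T and NK cell genes reached 118 RPKM, 88.2 RPKM of it from *Ccl5*, against 2.84 and 2.10. Its 9 hepatocyte genes summed to 34900 RPKM, the lowest sum of all libraries (53710 to 81750 in the other 11). That sum is mostly *Alb*, *Apoa1*, and *Ttr*. *Alb* (11780 RPKM) and *Ttr* (5352 RPKM) were lowest there, and each other gene of the list was lower in some other liver. Fasted *Lpin1*-/- replicate 1 was next, with 3331 RPKM for the other macrophage genes against 1198 and 315 in its group. Its T and NK cell sum, 41.9 RPKM with 29.85 RPKM from *Ccl5*, was second to that of refed *Lpin1*+/+ replicate 2. The other 10 livers had 1.99 to 29.8 RPKM. The part that these other cell types have in the results below was not tested.

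The C1q genes lie side by side on the minus strand of chromosome 4 (GRCm38, GENCODE M21), in the order *C1qb* (chr4:136880129-136886187), *C1qc* (chr4:136889804-136893065), and *C1qa* (chr4:136895917-136898803). They span 18675 bp, with 3616 and 2851 bp between neighbors. The other genes lie on different chromosomes: *Clec4f* at chr6:83644542-83656187, *Vsig4* at chrX:96247203-96293438, *Marco* at chr1:120474538-120505024, *Timd4* at chr11:46810800-46844332, *Cd5l* at chr3:87357881-87371073, and *Adgre1* at chr17:57358691-57483527.

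Because these genes shared much of their variation among livers, their promoters were searched for GAGGAA, the core of sites bound by the macrophage transcription factor PU.1, on both strands (TTCCTC on the gene strand is a match on the other). RefSeq promoters (GRCm38.p6, 250 bases before to 50 after the start site) were at hand for 7 of the 10 genes, not for *C1qa*, *Adgre1*, or *Csf1r*. The core was present in 5 of these 7, in *C1qb*, *C1qc*, *Cd5l*, *Marco*, and *Vsig4*, and in 28.3% of all 32851 promoters. The *Clec4f* and *Timd4* windows did not hold these letters. The matches are printed on the gene strand in 30-base windows, with the core in capitals, and the distance is that of its first base upstream of the start site.
C1qb, 30 bases upstream (chr4:136886213-136886242): gcagcaggatggGAGGAAcagaggggtgat
C1qc, 193 bases upstream (chr4:136893090-136893119): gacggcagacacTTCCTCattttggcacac
Cd5l, 66 bases upstream (chr3:87357803-87357832): cagtcacctcccTTCCTCtggccatgctga
Marco, 146 bases upstream (chr1:120505153-120505182): tgaagtgggtcaGAGGAAgatttcctgggg
Vsig4, 155 bases upstream (chrX:96293576-96293605): tcctagtagaatGAGGAAcagtttcaccca
Vsig4, 53 bases upstream (chrX:96293474-96293503): ggggaagtgtgtGAGGAAactaggattctg
A match describes the letters only, and binding was not measured.

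Over the 12 livers, the C1q genes were the most abundant of the 10. Median RPKM, which is per length and so can be compared between genes, was 69.2 for *C1qa*, 51.5 for *C1qb*, 45.2 for *C1qc*, and 43.4 for *Clec4f*. *Cd5l* and *Vsig4* followed with 17.2 and 12.2 RPKM, *Csf1r* with 5.29 RPKM, and *Timd4*, *Adgre1*, and *Marco* with 2.23, 1.40, and 1.28 RPKM. Neighbors in this order overlapped widely among livers, since the highest liver exceeded the lowest by 4.73-fold for *Clec4f*, 8.67-fold to 14.4-fold for the C1q genes, *Vsig4*, *Csf1r*, and *Timd4*, 30.8-fold for *Cd5l*, 38.6-fold for *Adgre1*, and 166-fold for *Marco*. The lowest value of *Marco*, in refed *Lpin1*-/- replicate 3, corresponds to an estimated 61 reads, and that of each other gene to at least 206 reads.

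**Figure D1:**
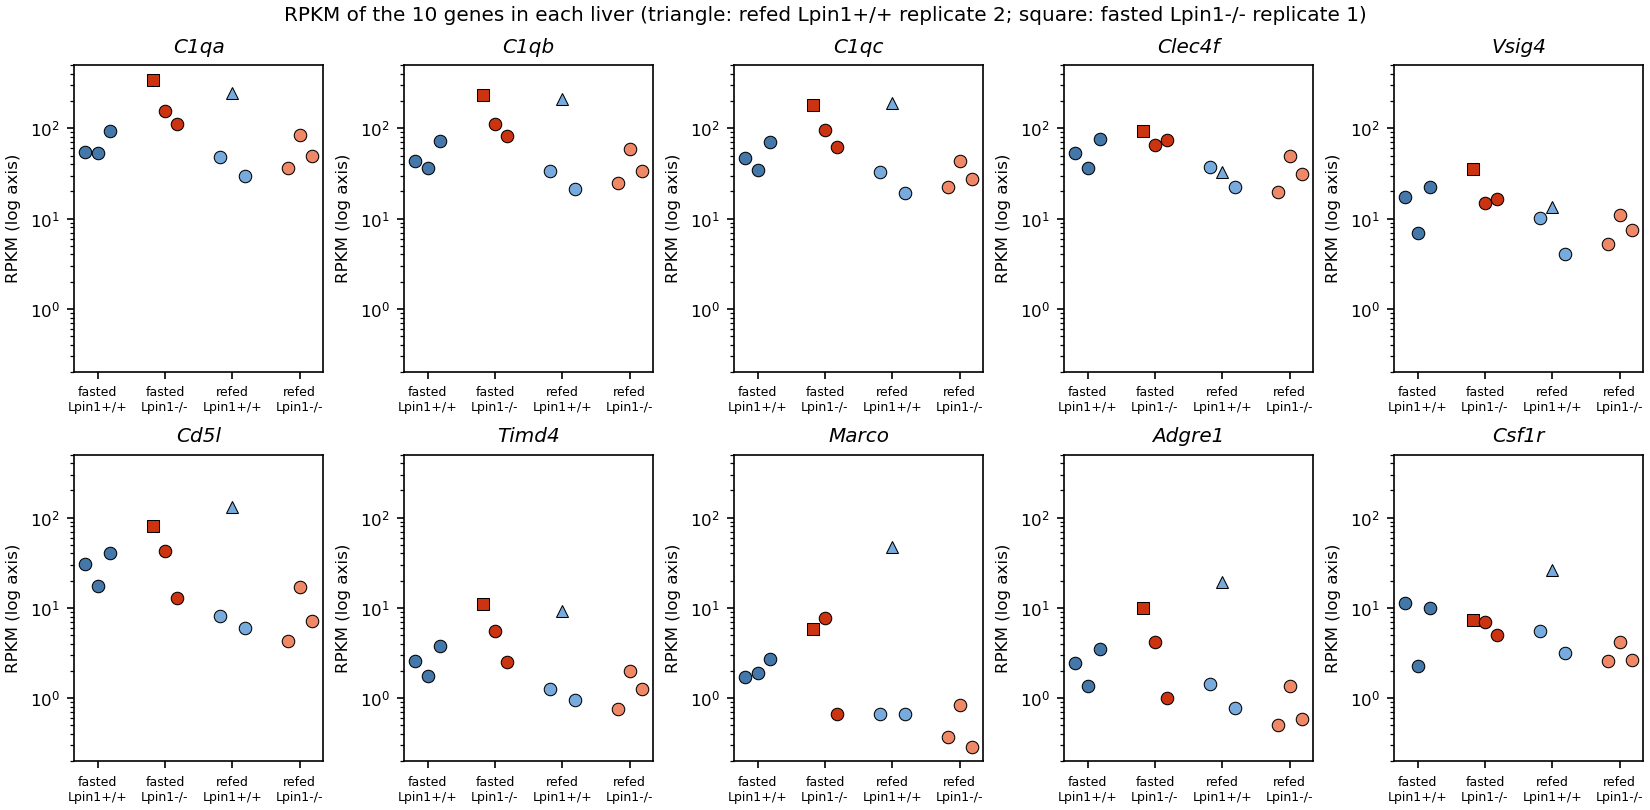
RPKM (log axis) of the 10 genes in the 12 livers, 1 point per mouse by group. The triangle, refed Lpin1+/+ replicate 2, is the highest of its group for 9 genes but not for Clec4f, and the square, fasted Lpin1-/- replicate 1, is the highest of its group for 9 genes but not for Marco.

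*C1qa*, which encodes the A chain of C1q, was 54.8, 53.1, and 93.6 RPKM in fasted *Lpin1*+/+ livers and 340.5, 155, and 111 RPKM in fasted *Lpin1*-/- livers. After refeeding it was 48.4, 249, and 29.8 RPKM in *Lpin1*+/+ livers and 36.5, 83.7, and 49.7 RPKM in *Lpin1*-/- livers. The fasted genotypes did not overlap, whereas the refed genotypes did, with the 249 RPKM of replicate 2 more than 5-fold above the others of its group (5.14-fold above the next).

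*C1qb*, the B chain gene, repeated this order, with 43.6, 36.4, and 71.9 RPKM in fasted *Lpin1*+/+ livers, 234, 110.4, and 81.2 RPKM in fasted *Lpin1*-/- livers, 33.4, 211, and 21.4 RPKM in refed *Lpin1*+/+ livers, and 24.6, 59.3, and 34.0 RPKM in refed *Lpin1*-/- livers. *C1qc*, the C chain gene, was 46.8, 34.8, and 70.1 RPKM in fasted *Lpin1*+/+ livers, 180.5, 94.8, and 62.3 RPKM in fasted *Lpin1*-/- livers, 33.1, 191, and 19.2 RPKM in refed *Lpin1*+/+ livers, and 22.5, 43.6, and 27.5 RPKM in refed *Lpin1*-/- livers. For *C1qc* the fasted genotypes overlapped by a single pair, 62.3 RPKM in *Lpin1*-/- replicate 3 and 70.1 RPKM in *Lpin1*+/+ replicate 3. Within a liver the ratio of *C1qb* to *C1qa* was 0.68 to 0.85, while the mean of the C1q genes ranged from 23.4 to 251.5 RPKM. The ratio of *C1qc* to *C1qa* was 0.65 to 0.85 in *Lpin1*+/+ livers and 0.52 to 0.62 in *Lpin1*-/- livers. The genotypes did not overlap in that ratio, by a narrow gap (0.645 in refed *Lpin1*+/+ replicate 3 and 0.616 in refed *Lpin1*-/- replicate 1). They did overlap in the ratio of *C1qb* to *C1qa*. How often other pairs of genes part in this way was not examined, and the difference was not tested.

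*Clec4f*, a C-type lectin receptor restricted to Kupffer cells in the mouse, was 52.6, 36.0, and 75.9 RPKM in fasted *Lpin1*+/+ livers and 94.0, 65.9, and 74.3 RPKM in fasted *Lpin1*-/- livers. It was 37.7, 32.4, and 22.6 RPKM in refed *Lpin1*+/+ livers and 19.9, 49.1, and 31.3 RPKM in refed *Lpin1*-/- livers. Every refed *Lpin1*-/- liver was below every fasted *Lpin1*-/- liver, and refed *Lpin1*+/+ replicate 2 lay between the other livers of its group.

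*Vsig4*, the complement receptor CRIg, was 17.4, 6.85, and 22.7 RPKM in fasted *Lpin1*+/+ livers, 35.4, 14.9, and 16.5 RPKM in fasted *Lpin1*-/- livers, 10.2, 13.6, and 4.09 RPKM in refed *Lpin1*+/+ livers, and 5.18, 10.9, and 7.41 RPKM in refed *Lpin1*-/- livers. *Timd4*, a receptor for phosphatidylserine on dying cells, was 2.58, 1.78, and 3.81 RPKM in fasted *Lpin1*+/+ livers, 10.98, 5.49, and 2.49 RPKM in fasted *Lpin1*-/- livers, 1.25, 9.19, and 0.95 RPKM in refed *Lpin1*+/+ livers, and 0.76, 1.98, and 1.26 RPKM in refed *Lpin1*-/- livers. In *Lpin1*-/- livers both genes were lower in each refed than in each fasted mouse, and in refed *Lpin1*+/+ livers replicate 2 was 1.33-fold above the next liver for *Vsig4* and 7.33-fold for *Timd4*.

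*Cd5l*, a scavenger protein secreted by tissue macrophages, was 30.8, 17.5, and 41.0 RPKM in fasted *Lpin1*+/+ livers, 81.4, 43.0, and 12.9 RPKM in fasted *Lpin1*-/- livers, 8.20, 131, and 5.96 RPKM in refed *Lpin1*+/+ livers, and 4.26, 17.0, and 7.08 RPKM in refed *Lpin1*-/- livers. *Marco*, a scavenger receptor for bacteria, was 1.73, 1.902, and 2.72 RPKM in fasted *Lpin1*+/+ livers, 5.89, 7.65, and 0.67 RPKM in fasted *Lpin1*-/- livers, 0.67, 47.2, and 0.67 RPKM in refed *Lpin1*+/+ livers, and 0.37, 0.83, and 0.28 RPKM in refed *Lpin1*-/- livers. The single value of 47.2 RPKM was 70.0-fold above the next of its group, and without it the other refed *Lpin1*+/+ livers were below all fasted *Lpin1*+/+ livers for both genes.

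*Adgre1* was 2.42, 1.37, and 3.47 RPKM in fasted *Lpin1*+/+ livers, 9.95, 4.14, and 1.00 RPKM in fasted *Lpin1*-/- livers, 1.43, 19.5, and 0.77 RPKM in refed *Lpin1*+/+ livers, and 0.51, 1.38, and 0.59 RPKM in refed *Lpin1*-/- livers. *Csf1r* (chr18:61100598-61132149) was 11.3, 2.30, and 9.91 RPKM in fasted *Lpin1*+/+ livers, 7.41, 6.98, and 4.97 RPKM in fasted *Lpin1*-/- livers, 5.60, 26.4, and 3.19 RPKM in refed *Lpin1*+/+ livers, and 2.55, 4.20, and 2.65 RPKM in refed *Lpin1*-/- livers. *Csf1r* was the only one of the 10 genes whose estimate was below 0 for fasted *Lpin1*-/- against fasted *Lpin1*+/+ livers (-0.05, SE 0.63, adjusted p = 0.969).

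Refeeding was compared with fasting first, averaged over the genotypes. *Clec4f* was lower in refed liver, with means ± SD of 54.8 ± 20.03 RPKM in fasted and 30.9 ± 7.64 RPKM in refed *Lpin1*+/+ livers, and of 78.1 ± 14.4 and 33.4 ± 14.7 RPKM in *Lpin1*-/- livers (n = 3 each). It fell by 1.02 on the log2(RPKM + 1) scale (SE 0.24, limma adjusted p = 0.0148), and it was the 1 gene of the 10 that passed the threshold, where 19% of all genes tested did and 1.84% did in the lower direction. The estimates for all 10 genes were below 0, from -0.30 for *Csf1r* to -1.26 for *Cd5l*, with a median of -0.81, against a median of 0.21 over all genes tested. *Vsig4* had the next lowest p (-1.01, SE 0.35, adjusted p = 0.0656).

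Refed *Lpin1*+/+ replicate 2 was the highest of its group for 9 genes, so leaving it out must lower their refed means. Without it, 8 of the 10 genes were lower in refed liver by the same test, where 2.23% of all genes were. Among them *Cd5l* changed by -1.94 (SE 0.46, adjusted p = 0.0170), *C1qc* by -1.33 (SE 0.30, adjusted p = 0.0148), *C1qb* by -1.30, *Marco* by -1.27, *C1qa* by -1.25, *Vsig4* by -1.17, *Timd4* by -1.15, and *Clec4f* by -1.05 (adjusted p = 0.0221). *Adgre1* and *Csf1r* had estimates of -1.06 and -0.70 (adjusted p = 0.0757 and 0.159). With fasted *Lpin1*-/- replicate 1 left out as well, 6 of the 10 genes passed, a count given without the share of all genes in that fit.

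Within *Lpin1*-/- livers, the fall after refeeding was seen in each of the C1q genes and most receptors as a separation of the groups. For 7 of the 10 genes, *C1qa*, *C1qb*, *C1qc*, *Clec4f*, *Vsig4*, *Timd4*, and *Csf1r*, every refed liver was below every fasted liver, as was the case for 9.26% of all genes tested. Only *Clec4f* passed the threshold in the fit of all 12 libraries (-1.28, SE 0.34, adjusted p = 0.0236), where 20.7% of all genes did and 2.92% did in the lower direction. An unadjusted limma p under 0.05 was found for 6 of the 10 and for 4150 of all 11507 genes tested. The estimates of the C1q genes were larger, -1.74 for *C1qa*, -1.77 for *C1qb*, and -1.74 for *C1qc*, with SEs of 0.67 to 0.71 and adjusted p-values of 0.0878 to 0.0979. *Clec4f* did not pass without fasted *Lpin1*-/- replicate 1 (adjusted p = 0.0874), refed *Lpin1*-/- replicate 1 (0.0839), or refed *Lpin1*-/- replicate 3 (0.0647). Without refed *Lpin1*+/+ replicate 2, which is not one of the livers compared but enters the shared variance, 7 genes passed in the lower direction, as did 3.83% of all genes, among them *C1qa*, *C1qb*, and *C1qc* (adjusted p = 0.0175, 0.0155, and 0.0136).

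In *Lpin1*+/+ livers, none of the 10 genes passed the threshold after refeeding (limma), where 1.72% of all genes did. An unadjusted p under 0.05 was found for 1 of the 10 and for 1594 of all 11507 genes tested. The estimates were above 0 for 6 genes and below 0 for 4, with *Clec4f* at -0.77 (95% interval -1.52 to -0.02, adjusted p = 0.346) and *C1qa* at 0.14 (95% interval -1.34 to 1.61). Without replicate 2 of the refed group, all 10 estimates were below 0, with a median of -0.83, from -0.54 for *Csf1r* to -1.86 for *Cd5l*. None passed there either in limma, with 1 at an unadjusted p under 0.05 (*Cd5l*, adjusted p = 0.300). For 6 of the 10 genes, both remaining refed *Lpin1*+/+ livers were below all fasted *Lpin1*+/+ livers, as was the case for 6.77% of all genes.

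**Figure D2:**
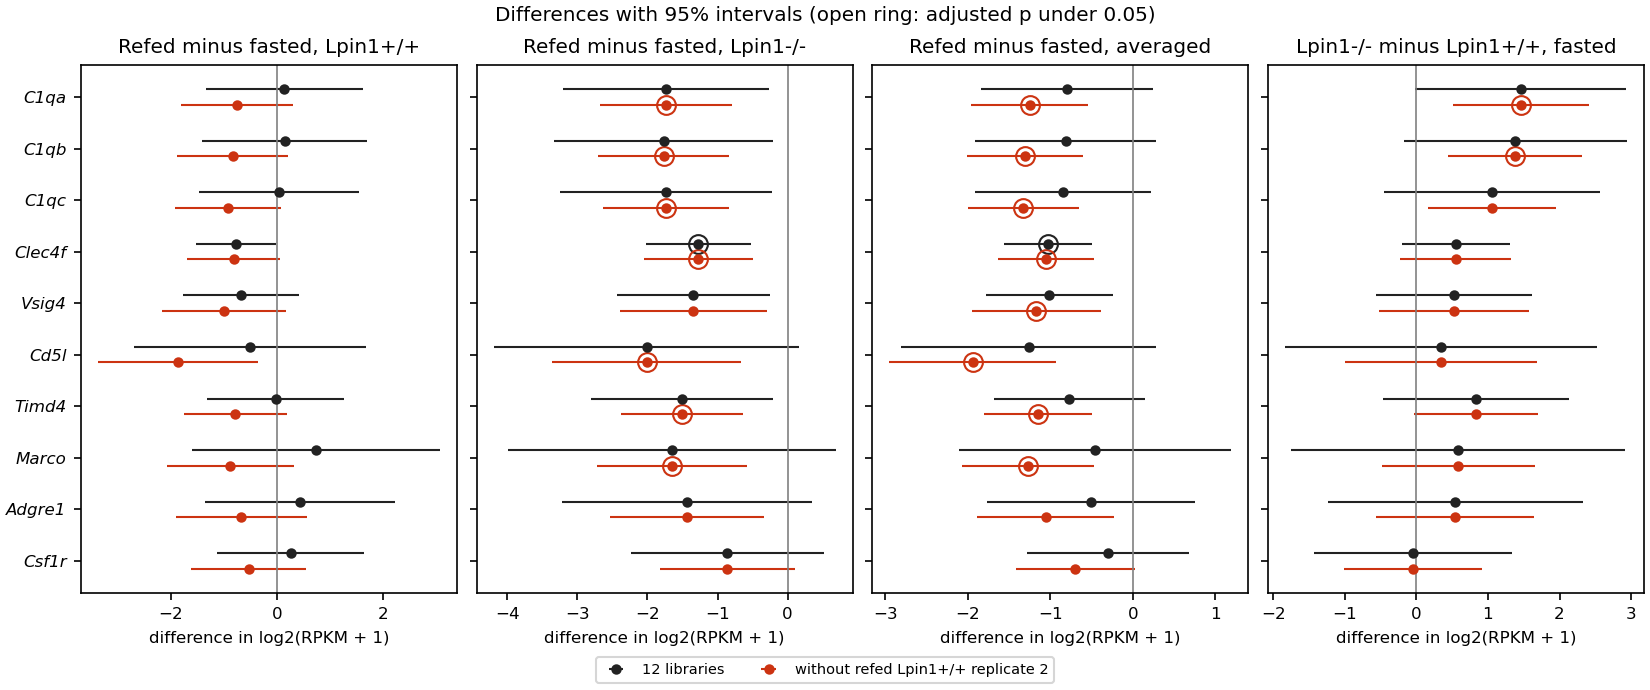
Difference in log2(RPKM + 1) with its 95% interval for each of the 10 genes in 4 comparisons, with all 12 libraries (black) and without refed Lpin1+/+ replicate 2 (red), with a ring where the adjusted p was under 0.05. Averaged over genotypes, Clec4f alone is ringed with 12 libraries and 8 genes are ringed without that library.

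Between genotypes in fasted liver, the group means of the C1q genes were higher in *Lpin1*-/- mice. *C1qa* averaged 202 ± 122 RPKM in *Lpin1*-/- and 67.1 ± 22.9 RPKM in *Lpin1*+/+ livers, and *C1qb* averaged 142 ± 80.9 and 50.7 ± 18.8 RPKM (mean ± SD, n = 3). Both genes were above every *Lpin1*+/+ liver in each *Lpin1*-/- liver, as were 10.7% of all genes tested. Neither passed the threshold in the fit of 12 libraries (*C1qa* 1.46, SE 0.67, adjusted p = 0.155; *C1qb* 1.38, SE 0.71, adjusted p = 0.202), nor did any other of the 10 genes, none of which had an unadjusted p under 0.05 in limma, while 18.8% of all genes passed. An unadjusted p that low was found for 3802 of all 11507 genes tested. Estimates were above 0 for 9 of the 10 genes, with a median of 0.57, against -0.14 over all genes.

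Without refed *Lpin1*+/+ replicate 2 the same differences had smaller errors, and *C1qa* and *C1qb* passed (SE 0.43 for both, adjusted p = 0.0358 and 0.0431), where 6.42% of all genes were higher. They did not pass when fasted *Lpin1*-/- replicate 1 was left out as well, and 0 of the 10 genes did. *Clec4f* differed less between fasted genotypes, by 0.55 (95% interval -0.20 to 1.30, adjusted p = 0.293).

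In refed liver, none of the 10 genes passed between genotypes, where 6.67% of all genes did. None had an unadjusted p under 0.05 (limma), which 2585 of all 11507 genes tested had. The estimates were below 0 for 9 genes with all libraries (median -0.68) and above 0 for 7 genes without *Lpin1*+/+ replicate 2 (median 0.15). *Marco*, *Adgre1*, and *Csf1r* stayed below 0 and *Clec4f* above 0, so the direction of the other genes rested on that liver. Averaged over feeding states, 0 of the 10 genes passed, against 21.8% of all genes. None was at an unadjusted p under 0.05, against 3996 of all 11507 genes tested. The interaction of genotype and feeding was below 0 for all 10 genes, from -0.50 for *Clec4f* to -2.38 for *Marco*. The interaction passed for none, where 1.28% of all genes passed, and none was at an unadjusted p under 0.05, as 2082 of all 11507 genes were. The median of the 10 estimates moved from -1.64 to -0.74 without refed *Lpin1*+/+ replicate 2.

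*Clec4f* and the C1q genes parted in particular livers. The ratio of *Clec4f* to the mean of the C1q genes was 1.09, 0.87, and 0.97 in fasted *Lpin1*+/+ livers and 0.71, 0.79, and 0.84 in refed *Lpin1*-/- livers. It was 0.98 and 0.97 in refed *Lpin1*+/+ replicates 1 and 3 but 0.15 in replicate 2. In fasted *Lpin1*-/- livers it was 0.37, 0.55, and 0.88, in the reverse order of their other macrophage sums (3331, 1198, and 315 RPKM). The C1q mean, the denominator of the ratio, was 251.5, 119.9, and 84.8 RPKM there, in the order of those sums, so the 2 orders are not independent. *Marco* parted in the other direction, at 0.19 of *C1qa* in refed *Lpin1*+/+ replicate 2 and at most 0.049 in the other 11 livers.

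**Figure D3:**
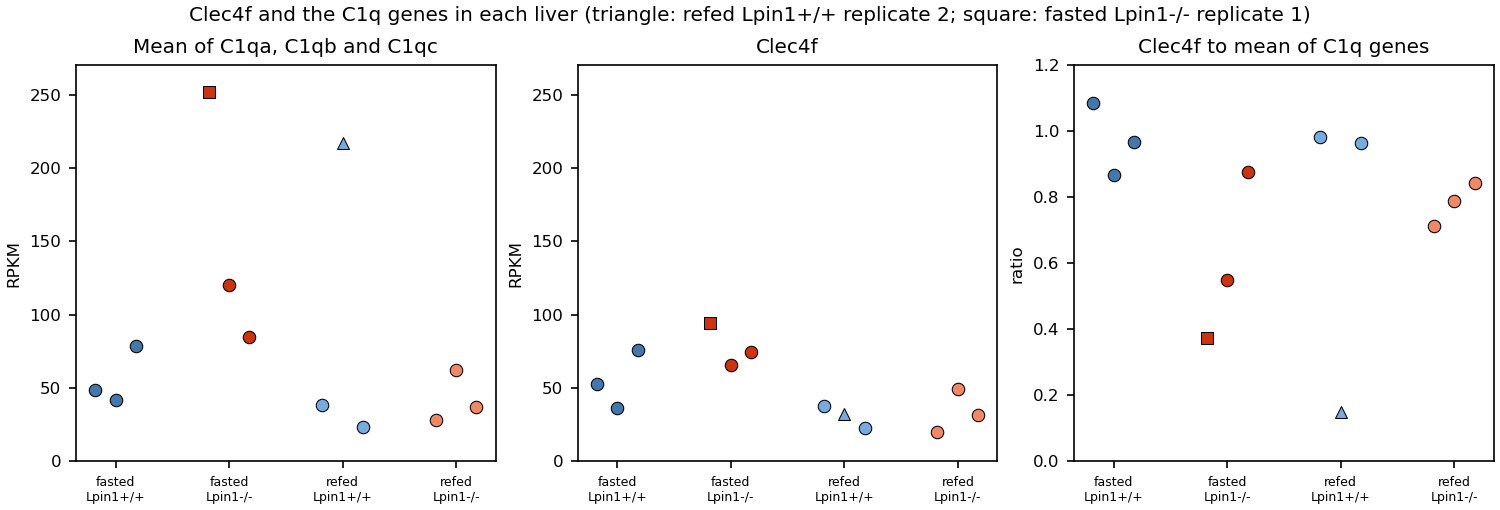
Mean RPKM of C1qa, C1qb, and C1qc, RPKM of Clec4f, and the ratio of Clec4f to that mean in the 12 livers, 1 point per mouse by group. The ratio is 0.71 to 1.09 in 9 livers and 0.55, 0.37, and 0.15 in fasted Lpin1-/- replicates 2 and 1 and refed Lpin1+/+ replicate 2.

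Across the 12 livers, which share these high libraries, Pearson r of log2(RPKM + 1) was 0.98 to 1.00 among the C1q genes, given as a description. With the other 9 genes *Clec4f* had r of 0.23 to 0.92, and of 0.69 to 0.95 without refed *Lpin1*+/+ replicate 2. The 5 tested genes outside the group most like the mean of the C1q genes were *Cfp* (r = 0.99), which encodes properdin, *Ctss* (0.99) and *Lgmn* (0.99), which encode lysosomal proteases, *Alox5ap* (0.96), and *Cd53* (0.96). The same 5 genes ranked highest without refed *Lpin1*+/+ replicate 2. *Cfp*, for example, was 66.4 RPKM in fasted *Lpin1*-/- replicate 1, 65.0 RPKM in refed *Lpin1*+/+ replicate 2, and 5.85 to 27.5 RPKM elsewhere.

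Most like *Clec4f* over 12 livers were *Gch1* (r = 0.84), the first enzyme of tetrahydrobiopterin synthesis, *Folr2* (0.83), a folate receptor of resident macrophages, *Cenpw* (0.82), *Rnf138* (0.82), and *Fcna* (0.81), a ficolin. Without refed *Lpin1*+/+ replicate 2 they were *Folr2* (0.94), *Slc11a1* (0.92), *Lmo2* (0.91), *Cfp* (0.90), and *Lgmn* (0.89), so that 1 of the 5 genes was shared.

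Other genes of macrophages and complement were read from fixed lists. Of 28 other macrophage genes, 23 had estimates below 0 in refed against fasted liver averaged over genotypes (median -0.24, against 0.21 over all genes). One was lower, *Folr2* (-0.94, SE 0.28, adjusted p = 0.0386), and 1 higher, the iron exporter gene *Slc40a1* (1.05, SE 0.22, adjusted p = 0.00783). The rise of *Slc40a1* was in *Lpin1*-/- livers, from 12.97 to 17.9 RPKM fasted to 76.5 to 101 RPKM refed. In *Lpin1*+/+ livers it was 46.9 to 86.9 RPKM fasted and 32.05 to 76.25 RPKM refed. Its interaction of genotype and feeding passed (2.77, limma adjusted p = 0.0157). Without refed *Lpin1*+/+ replicate 2, 26 were below 0 and 5 were lower. Between genotypes averaged over feeding states, 0 of the 28 passed (limma), with 3 at an unadjusted p under 0.05. Without that library 2 were higher in *Lpin1*-/- livers, among them *Cd14*, a receptor for bacterial lipopolysaccharide (2.13, adjusted p = 0.0611, and 2.87, adjusted p = 0.00145, without it). In fasted liver alone, with all libraries, 1 of the 28 was higher and 1 lower in *Lpin1*-/- livers, where 18.8% of all genes passed. *Cd14* was 2.36 to 3.59 RPKM in fasted *Lpin1*+/+ and 28.35 to 200.7 RPKM in fasted *Lpin1*-/- livers. Of 11 macrophage transcription factor genes tested, *Nr1h3*, which encodes LXRα and is also expressed in hepatocytes, was higher after refeeding (0.63, adjusted p = 0.0318) and lower in *Lpin1*-/- livers averaged over feeding states (-0.73, adjusted p = 0.0146). *Nr1h3* did not pass for refeeding without refed *Lpin1*+/+ replicate 2 (0.61, adjusted p = 0.0546) but passed between genotypes (adjusted p = 0.0269). *Cebpb*, which hepatocytes express as well, was higher in *Lpin1*-/- livers (1.35, adjusted p = 0.00217).

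None of the 6 tested genes for CSF1R ligands and adaptors passed in the averaged contrasts, and none had an unadjusted p under 0.05 (limma). *Csf1*, which encodes a ligand of that receptor, had an estimate of 0.46 for refeeding (adjusted p = 0.291), and *Il34*, the other ligand gene, -0.29 (adjusted p = 0.421). Of 29 other complement genes tested, most of them made by hepatocytes, 20 had estimates below 0 after refeeding and 2 were lower, *C9* (-0.68, adjusted p = 0.0288) and *Cfi* (-0.44, adjusted p = 0.0325), and 5 were lower without refed *Lpin1*+/+ replicate 2. Between genotypes averaged over feeding states, *Mbl1* (-0.76, adjusted p = 0.0327) and *C8a* (-0.67, adjusted p = 0.0420) were lower in *Lpin1*-/- livers. Neither passed without refed *Lpin1*+/+ replicate 2 (adjusted p = 0.0520 and 0.0628), nor did any other of the 29. Of 10 tested genes of monocytes and recruited macrophages, *Cd9*, a tetraspanin that other liver cells also express, was higher (1.81, SE 0.24, adjusted p = 0.000567) and *Cx3cr1* lower (-1.05, adjusted p = 0.0265) in *Lpin1*-/- livers, and none passed for refeeding, with none at an unadjusted p under 0.05.

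Markers of other liver cells were read in the same way, and their part in the results was not tested. Averaged over genotypes, refeeding raised *Gpr182* of 13 sinusoidal endothelial genes (0.92, adjusted p = 0.0180), *Lrat* of 11 stellate cell genes (1.08, adjusted p = 0.0131), and *Krt18* and *Krt8* of 6 cholangiocyte genes, which hepatocytes also express (0.90 and 0.89, adjusted p = 0.00137 and 0.00501). No tested gene of the neutrophil, B cell, T and NK cell, dendritic cell, hepatocyte, or erythroid lists passed for refeeding averaged over genotypes, and 2 in all had an unadjusted p under 0.05 in limma, *Cd79a* and *Zbtb46*. Without refed *Lpin1*+/+ replicate 2, under which 8 of the 10 genes were lower, the B cell gene *Cd79a* (-0.62, adjusted p = 0.0236) and the dendritic cell gene *Zbtb46* (-0.38, adjusted p = 0.0411) were lower after refeeding as well. The estimates of all 4 neutrophil, 4 B cell, 6 T and NK cell, and 2 dendritic cell genes tested were then below 0. In *Lpin1*-/- livers averaged over feeding states, the endothelial gene *Lyve1* (1.71, adjusted p = 0.00371), the stellate cell gene *Hgf* (0.98, adjusted p = 0.0245), the neutrophil gene *Retnlg* (1.58, adjusted p = 0.0159), and the hepatocyte gene *Tat* (1.65, adjusted p = 0.0319) were higher. *Krt18* (-1.02, adjusted p = 0.000404), *Krt8* (-0.54, adjusted p = 0.0368), and *Apob* (-0.75, adjusted p = 0.0270) were lower. *Tat* and *Krt8* did not pass between genotypes without refed *Lpin1*+/+ replicate 2 (adjusted p = 0.0603 and 0.0675), and the neutrophil gene *S100a9* (1.85, adjusted p = 0.0410) and the stellate cell gene *Dcn* (0.96, adjusted p = 0.0353) did. No gene of the B cell, T and NK cell, dendritic cell, or erythroid lists passed between genotypes averaged over feeding states (limma), with 2 at an unadjusted p under 0.05, *Zbtb46* and *Alas2*. In fasted liver alone *Zbtb46* was higher in *Lpin1*-/- livers (0.63, adjusted p = 0.0192), where 18.8% of all genes passed. In *Lpin1*-/- livers alone it was lower after refeeding (-0.67, adjusted p = 0.0135), where 2.92% of all genes were.

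**Figure D4:**
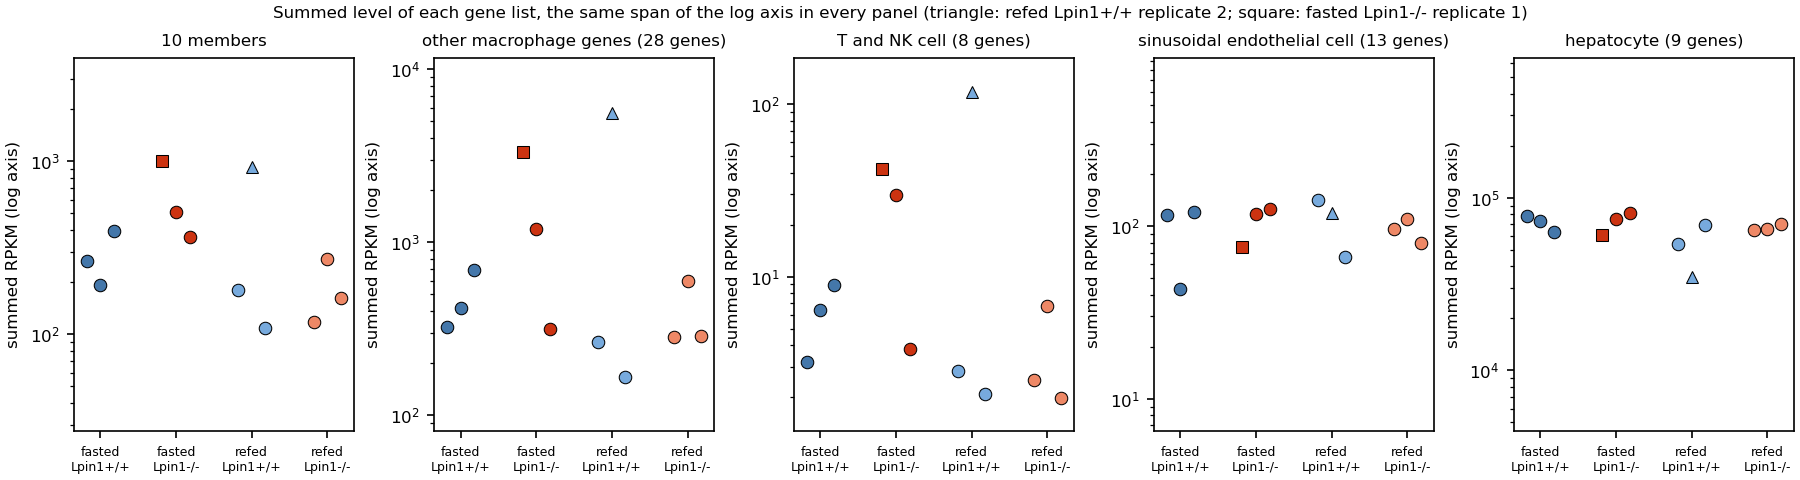
Summed RPKM (log axis, the same span in each panel) of the 10 genes and 4 other lists in the 12 livers, 1 point per mouse by group. Refed Lpin1+/+ replicate 2 (triangle) is at 5603 RPKM for the other macrophage genes, the highest sum. It is at 34900 RPKM for the hepatocyte genes, the lowest sum, which is mostly Alb, Apoa1, and Ttr.

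Skipped exon events were compared between genotypes within each feeding state, as the log2 ratio of inclusion to skipping counts per effective length. The fasted table held 59 events in the 10 genes, of which 56 had at least 10 counts in every library, and the refed table held 42 events, of which 33 did. Of the 56 fasted events, 2 passed the threshold (10.8% of all fasted events did), both in *Clec4f*, and none of the 33 refed events did (1.03% of all), with 1 at an unadjusted p under 0.05 in limma. Most events in these genes had few counts for the rarer form, with a mean of at least 5 in 13 fasted and 4 refed events.

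Both *Clec4f* events rest on the same skipping counts, those that join exon 1 (chr6:83655957-83656187) to exon 4 (chr6:83652359-83653300) and leave out exons 2 and 3, of 117 and 81 bases. The junctions of *Clec4f*-201 on the minus strand are printed with 15 bases on each side from the GENCODE M21 transcript and with the later exon in capitals.
Exon 1 to exon 2, both exons kept: ccctacagccccaagGACTGGGGCCTAAGT
Exon 1 to exon 3, exon 2 skipped: ccctacagccccaagCTTCACAGCCTTGGA
Exon 1 to exon 4, exons 2 and 3 skipped: ccctacagccccaagATCATTCCCAATTTG
Exon 1 to exon 4 was read 0, 0, and 2 times in fasted *Lpin1*+/+ livers and 22, 5, and 21 times in fasted *Lpin1*-/- livers. Inclusion counts of exon 2 in that event were 1010, 365, and 1021 in *Lpin1*+/+ and 945, 847, and 1074 in *Lpin1*-/- livers. Every *Lpin1*-/- liver thus had more of these skipping counts than any *Lpin1*+/+ liver. By this event alone, which leaves out skipping from exon 1 to exon 3, exon 2 was included at 94.0% to 98.4% in *Lpin1*-/- livers. In *Lpin1*+/+ livers that value was 99.5% or more. The log2 ratio of inclusion to skipping changed by -3.62 (SE 0.86, adjusted p = 0.0195) for exon 2 and by -3.52 (SE 0.82, adjusted p = 0.0182) for exon 3, values that depend on the 0.5 added to each count.

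The junction of exon 1 with exon 3 had more counts, 5, 12, and 6 in fasted *Lpin1*+/+ and 30, 26, and 52 in fasted *Lpin1*-/- livers, and its event did not pass (-1.82, SE 0.85, adjusted p = 0.199). By that event exon 2 was included at 94.6% to 99.1% in fasted *Lpin1*+/+ and at 92.1% to 94.9% in fasted *Lpin1*-/- livers, which overlap. In the refed table the junction of exon 1 with exon 3 was read 2, 0, and 2 times in *Lpin1*+/+ and 3, 6, and 2 times in *Lpin1*-/- livers (-0.98, adjusted p = 0.657), and exon 1 to exon 4 was read once, in an *Lpin1*-/- liver. Whether the genotype difference itself changed with feeding was not tested. The fasted call rested on few counts: no event of the 10 genes passed without the library at list position 1 or 2 of *Lpin1*+/+ or position 1 of *Lpin1*-/-, 1 passed without position 3 of *Lpin1*-/-, and 3 passed without position 2 of *Lpin1*-/-. Positions in these lists carry no replicate numbers. In fasted *Lpin1*-/- livers, inclusion counts of a *C1qa* exon were 7221, 3773, and 3138 in list order. *C1qa* was 340.5, 154.7, and 110.9 RPKM in replicates 1, 2, and 3, so the highest liver came first in both.

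**Figure D5:**
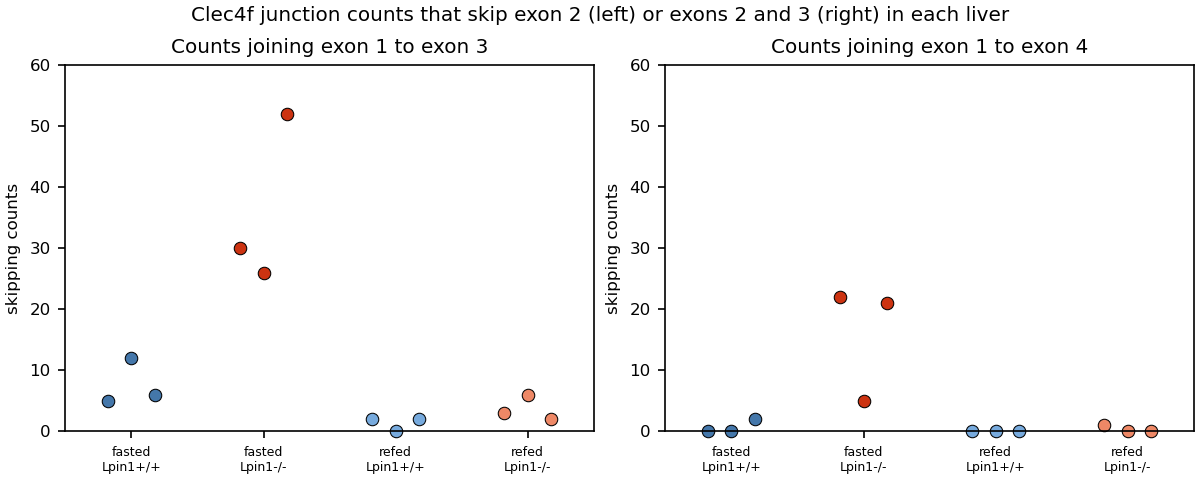
Counts of reads joining Clec4f exon 1 to exon 3 (left) or to exon 4 (right) in each liver, 1 point per mouse by group, in list order. Fasted Lpin1-/- livers had 26 to 52 and 5 to 22 counts, fasted Lpin1+/+ livers 5 to 12 and 0 to 2.

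The event with the most counts of its rarer form in *Clec4f* was an exon of 111 bases (chr6:83654417-83654527) between exons 3 and 4 that is not annotated in GENCODE M21. It was included by 18, 2, and 12 counts in fasted *Lpin1*+/+ and 21, 36, and 50 counts in fasted *Lpin1*-/- livers, against 220 to 759 skipping counts (1.49, SE 0.77, adjusted p = 0.245). In *C1qb* it was a 68-base exon (chr4:136884243-136884310), also not annotated, with 1, 1, and 4 against 24, 22, and 10 inclusion counts in fasted liver (1.66, SE 0.73, adjusted p = 0.175). Refed livers had 9, 37, and 2 against 5, 3, and 2 counts for the same exon (-1.13, adjusted p = 0.552). Exon 6 of *Timd4* (47 bases, chr11:46837028-46837074) had 70.9% to 83.7% inclusion in fasted *Lpin1*+/+ and 74.7% to 89.4% in fasted *Lpin1*-/- livers (0.56, SE 0.77, adjusted p = 0.684). Exon 5 of *Vsig4* (105 bases, chrX:96249875-96249979) was included at 94.4% to 98.6% and 90.9% to 98.8% (-0.07, SE 0.91, adjusted p = 0.969). In *C1qa*, *C1qc*, *Cd5l*, *Marco*, *Adgre1*, and *Csf1r*, the rarer form of the leading fasted event had at most 24 counts in any liver, and none passed.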

How the data were processed

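RNA-Seq of 12 livers was deposited by the authors as RPKM for each gene and library, made with HISAT2 2.0.5 on GRCm38 (Ensembl 84) and HTSeq 0.6.0, as the submitters' processing notes list them, and as rMATS skipped exon tables with inclusion and skipping counts per library. Columns of the authors' own p-values, FDR, and inclusion differences were not used, and 3 tables of events selected by the authors were not used. Libraries were grouped by genotype and feeding state as labelled. In the event tables the first list is *Lpin1*+/+, since its counts equal those of the *Lpin1*+/+ table for all 1523 shared fasted and 1719 shared refed events.

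Values were fitted as log2(RPKM + 1), for genes averaging 0.5 RPKM or more, with limma 3.58.1 (R 4.3.3, variance trend, 4 group means), with the Benjamini-Hochberg adjustment over 11507 genes and a threshold of 0.05. A fold on this scale understates the change of genes near 1 RPKM. Events with at least 10 counts in each of 6 libraries were fitted with limma after adding 0.5 to each count, by genotype. P-values in the text are from these fits. Both fits were tested on simulated data. Depth was estimated from steps between low RPKM values. It limits precision less than the spread between mice does. The SD of log2(RPKM + 1) of the 10 genes over 3 livers was 0.24 to 2.80, and the median over all genes was 0.22 to 0.34. RPKM, a relative measure, falls for these genes where other transcripts take more of a library.

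The 10 genes and all lists were chosen with earlier results of these data known. The text names all 10 genes, *Lpin1*, from each other list genes among the 2 with the lowest p in each averaged contrast, the 5 most like genes, and for events those past the threshold and the leading event of each gene. Results were recomputed with a pseudocount of 0.1, without the filter or with one of 5 RPKM, median-ratio rescaling, a replicate block, only the 6 libraries compared, each library left out, and, for events, at least 20 counts or 1 added to each. Leaving out 2 libraries together, and giving results without refed *Lpin1*+/+ replicate 2 throughout, were chosen after seeing the data. Python 3.11.15 read the files and drew the figures.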

Additional observations from a re-analysis of the deposited data

How the results depend on the processing

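Of the 10 genes, those altered by feeding averaged over genotypes numbered 1 with all libraries, 1 to 8 with each library left out (2 without fasted *Lpin1*+/+ replicate 2, 8 without refed *Lpin1*+/+ replicate 2), 2 after rescaling, and 6 without both refed *Lpin1*+/+ replicate 2 and fasted *Lpin1*-/- replicate 1. By feeding in *Lpin1*-/- liver they numbered 1, 0 without a filter, 2 after rescaling, 7 with only the 6 libraries compared, and 0 to 7 with each library left out (0 without fasted *Lpin1*-/- replicate 1 or refed *Lpin1*-/- replicate 1 or 3, 2 without fasted *Lpin1*+/+ replicate 2, 7 without refed *Lpin1*+/+ replicate 2). By genotype in fasted liver they numbered 0, and 0 to 2 with each library left out (2 without refed *Lpin1*+/+ replicate 2). The 2 fasted events became 0 to 3 with each library left out. No other count moved, and *Clec4f* passed for feeding averaged over genotypes in all 18 alternatives, with adjusted p of 0.00652 to 0.0436. Rescaling moved the median of all genes from 0.21 to -0.00370 for averaged feeding and from 0.25 to -0.03 for feeding in *Lpin1*-/- liver. The genes higher after refeeding went from 90.3% to 61.6% of all calls, and all 10 estimates stayed below 0. The second gene called there was *Vsig4*, where 496 of all genes tested were lower and 794 higher. For feeding in *Lpin1*-/- liver after rescaling, 696 of all genes were lower and 972 higher. Shares of all genes without refed *Lpin1*+/+ replicate 2 are given above. The remaining counts have no such share beside them and show only how the 10 genes moved. Between fasted genotypes the genes higher in *Lpin1*-/- livers went from 29.9% to 47.2% of calls, and averaged over feeding from 32.2% to 47.0%.

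With the replicate block, 1 of the 10 genes passed for feeding averaged over genotypes and 1 for feeding in *Lpin1*-/- liver, as without it, and 0 in the other comparisons. Correlations of the deviations of same-numbered livers were -0.47 to 0.74 over 18 pairs, with 8 above 0.1. All 3 pairs were above 0.1 for refed *Lpin1*+/+ with refed *Lpin1*-/- livers (0.16 to 0.30) and for fasted *Lpin1*+/+ with refed *Lpin1*-/- livers (0.39 to 0.74), and not for the other 4 pairs of groups. The numbers were therefore not taken to pair the livers of the whole design. The event tables carry no replicate numbers. The rarer form of most events averaged fewer than 5 counts, which limits what the event tests can show, and the calls also rest on single livers.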
